A study of Mus musculus with 12 samples.

Results

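Enteric glia with measurable Gfap transcript and little transcript of the MHC class II pathway were taken from the CD49b+ plates of a single-cell RNA sequencing study of the myenteric plexus. They comprised 104 wells, out of 432 CD49b+ wells that passed the quality limits, 575 wells on the 6 CD49b+ plates and 1150 wells on 12 plates in all. The wells were chosen by their own counts. A well had at least 1000 and fewer than 10,000 UMIs (unique molecular identifiers, 1 per captured transcript molecule), at least 500 genes, under 20% mitochondrial UMIs, at least 2 Gfap UMIs, and fewer than 10 UMIs summed over H2-Aa, H2-Ab1, H2-Eb1 and Cd74. They were set against 113 wells of the same plates with 0 Gfap UMIs that met all other limits, called Gfap-0 wells here. A count of 0 Gfap UMIs at this depth does not show that a cell lacked the transcript.

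Each well held 1 sorted cell of the LMMP, the longitudinal muscle layer of the intestine with the attached myenteric plexus, from adult C57BL/6 mice. The groups were irradiated CD49b+ (3 mg tamoxifen at 8 weeks of age in replicate 1 and at 9 weeks in replicates 2 and 3, 10.5 Gy after 7 days, tissue 3 days later) and homeostasis CD49b+ (3 mg tamoxifen at 9 weeks in replicate 2 and at 8 weeks in replicates 1 and 3, no irradiation). Both groups were collected 10 days after tamoxifen, so that the controls had received it too. Each group had 3 plates, and each plate came from a pool of 2 mice, so that the plate is the replicate and animals within a pool cannot be told apart. All cells carried the Dclk1-tdTom label, a red reporter tied to the kinase gene Dclk1, and the gate was surface CD49b, an integrin chain. They therefore stand for labelled CD49b+ cells and not for all enteric glia. The labels call the CD49b+ cells glial and the CD49b- cells of the companion plates neuronal.

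Gfap encodes glial fibrillary acidic protein, an intermediate filament of astrocytes, enteric glia and non-myelinating Schwann cells. In the gut, Gfap is found in a changing share of the glia of the myenteric ganglia, and its amount is known to rise when glia react to inflammation or injury. MHC class II molecules present peptides to helper T cells: H2-Aa and H2-Ab1 encode the chains of I-A, H2-Eb1 a chain of I-E, and Cd74 the invariant chain that guides them through the cell. Enteric glia can display MHC class II under inflammatory stimulation.

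The promoter of Gfap is shown with those of Serpina3n and Npy, because Gfap defines the wells and the other two were among the 3 genes that were higher after irradiation. Each is the RefSeq window of 250 bases before to 50 bases after the annotated start on GRCm38.p6, 5′ to 3′ on the gene's strand. Capitals mark a match to TTCNNNGAA, the palindromic pattern bound by STAT factors, which act downstream of gp130 cytokine receptors and interferon receptors.
Gfap (chr11:102897151-102897450, minus strand): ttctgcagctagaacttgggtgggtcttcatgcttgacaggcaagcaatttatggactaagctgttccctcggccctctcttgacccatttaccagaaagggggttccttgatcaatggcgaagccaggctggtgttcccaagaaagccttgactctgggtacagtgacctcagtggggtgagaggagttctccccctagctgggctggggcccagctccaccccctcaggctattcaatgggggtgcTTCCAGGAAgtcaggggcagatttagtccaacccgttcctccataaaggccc
Serpina3n (chr12:104406458-104406757, plus strand): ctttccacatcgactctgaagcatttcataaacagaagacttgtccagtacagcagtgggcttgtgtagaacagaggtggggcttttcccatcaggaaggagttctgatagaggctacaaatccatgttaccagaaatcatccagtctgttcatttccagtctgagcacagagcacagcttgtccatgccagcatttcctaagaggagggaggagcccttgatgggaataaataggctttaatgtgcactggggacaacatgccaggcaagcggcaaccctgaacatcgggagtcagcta
Npy (chr6:49822460-49822759, plus strand): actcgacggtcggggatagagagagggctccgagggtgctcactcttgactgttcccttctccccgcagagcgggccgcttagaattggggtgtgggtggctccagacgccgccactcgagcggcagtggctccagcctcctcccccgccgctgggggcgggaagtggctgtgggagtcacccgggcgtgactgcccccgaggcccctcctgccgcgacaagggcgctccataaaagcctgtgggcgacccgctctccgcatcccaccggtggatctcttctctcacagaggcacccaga

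Of these windows, Gfap held 1 match, beginning at base 249 of 300 as counted from its 5′ end, and Serpina3n and Npy held 0. The pattern occurred in 8.30% of the 32851 promoter windows of the table. The core of the interferon-stimulated response element, searched by 10 letters, had 0 matches in all of these and occurred in 3.44% of windows. TATAAA (13.6% of windows) and TGACGTCA (1.79% of windows), searched on both strands like the others, had 0 matches too. A match is a run of letters and not a measured binding site.

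Both classes of wells carried markers of the labelled cell type. S100b, a calcium-binding protein of glia, was detected in 89 of the 104 Gfap-positive wells and in 94 of the 113 Gfap-0 wells. Sox10, the transcription factor of the glial lineage, was detected in 54 and 53 wells of the same classes. Of 13 enteric glia markers 12 were detected, and their summed level was 46.5 UMIs per 10,000 in Gfap-positive wells and 48.5 in Gfap-0 wells. Levels per 10,000 UMIs leave out the 5 genes that chose the wells.

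Markers of other cell types were at 0 or low. The 5 lymphocyte, 3 mesothelial and 2 erythroid markers had 0 UMIs in the 104 wells, and 1 of 8 macrophage markers was found, Cd68 with 2 UMIs. Summed neuron markers reached 2.41 UMIs per 10,000 in Gfap-positive wells and 1.78 in Gfap-0 wells, with Snap25, a synaptic vesicle fusion protein, in 4 wells of each class. Summed smooth muscle markers reached 2.07 and 2.96 in the same order of classes, and fibroblast markers 1.32 and 1.70. Schwann and myelin genes, 4 of 5 of them detected, reached 3.72 in Gfap-positive wells and 3.55 in Gfap-0 wells. The epithelial sum of 4.55 in Gfap-positive wells came entirely from Lgr5, the Wnt pathway receptor, since Epcam and Krt8 were at 0.

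Total UMIs per CD49b+ plate ran between 154993 and 245922. Gfap-positive wells had a median of 2533.5 UMIs and 1524 genes, and Gfap-0 wells 2217 UMIs and 1367 genes. The median mitochondrial share was 2.02% in Gfap-positive and 2.00% in Gfap-0 wells. Plates shared 95 of 96 well barcodes, which name well positions, and no passing wells had identical counts. The plate of irradiated replicate 1 stood apart: 59 of its 68 passing wells had 10 or more MHC II UMIs, against 25 of 81 and 21 of 60 on the other irradiated plates and 12 of 81, 5 of 70 and 14 of 72 on the homeostasis plates. It therefore kept only 2 Gfap-positive and 4 Gfap-0 wells below the MHC II limit, too few for the gene tests, which needed at least 5 wells in a sum.

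Most Gfap-positive wells held little Gfap. Of the 104 wells, 54 had exactly 2 Gfap UMIs, 13 had 3 and 37 had 4 or more, with a highest count of 11. Just outside the limit, 79 wells of low MHC II had 1 Gfap UMI. Just inside the MHC II limit lay 15 wells with 8 or 9 UMIs, and just outside it 7 Gfap-bearing wells with 10 or 11. In all, 72 wells with at least 2 Gfap UMIs were left out for 10 or more MHC II UMIs. These counts follow from the rule and are descriptions.

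Gfap was nearly confined to the CD49b+ gate among the passing wells. At least 1 Gfap UMI was found in 290 of 432 passing CD49b+ wells, with a median of 2455 UMIs a well. It was found in 1 of 438 passing CD49b- wells (0.228%, exact 95% binomial interval 0.0058% to 1.27%), although these were deeper at a median of 6684.5 UMIs. The interval covers counting error only.

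Low MHC II in the selected wells was not absence. H2-Ab1 was detected in 78 of the 104 Gfap-positive wells, Cd74 in 46, H2-Eb1 in 42 and H2-Aa in 41. The median sum over these genes was 3 UMIs in Gfap-positive wells and 2 in Gfap-0 wells, and 8 and 12 wells of the same classes had none. Among other MHC II pathway genes, 6 of 9 were detected, and the list summed to 8.16 UMIs per 10,000 in Gfap-positive and 8.05 in Gfap-0 wells.

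Whether irradiation altered the share of these cells was asked over plates. Gfap-positive MHC II-low wells made up 2.94%, 39.5% and 43.3% of passing wells on the irradiated plates (2 of 68, 32 of 81 and 26 of 60) and 16.0%, 24.3% and 19.4% on the homeostasis plates (13 of 81, 17 of 70 and 14 of 72). Irradiated replicates 2 and 3 lay above all homeostasis plates and irradiated replicate 1 below them. The means were 28.6% ± 22.3 after irradiation and 19.9% ± 4.14 in homeostasis (SD, n = 3 each), a difference of 8.67 percentage points that did not exceed the spread between plates (two-sided exact permutation p = 0.5; 3 plates against 3 cannot go below 0.1). Without irradiated replicate 1 the difference was 21.5 points (exact permutation p = 0.1).

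The share depended on the MHC II limit. Wells with at least 2 Gfap UMIs and any MHC II count made up 50%, 59.3% and 65.0% of passing wells on the irradiated plates and 19.8%, 28.6% and 26.4% on the homeostasis plates, and these ranges did not overlap. The means were 58.1% ± 7.57 and 24.9% ± 4.59 for irradiated and homeostasis plates (SD, n = 3 each), and the exact permutation p was 0.1, the smallest possible. Among wells below the MHC II limit, Gfap-positive wells were 22.2%, 57.1% and 66.7% on irradiated plates and 18.8%, 26.2% and 24.1% on homeostasis plates (exact permutation p = 0.3). With the limit lowered to 1 Gfap UMI the direction turned, to a difference of -5.15 points, and with wells thinned to 1000 UMIs and at least 1 Gfap UMI it was -2.04 points.

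**Figure D1:**
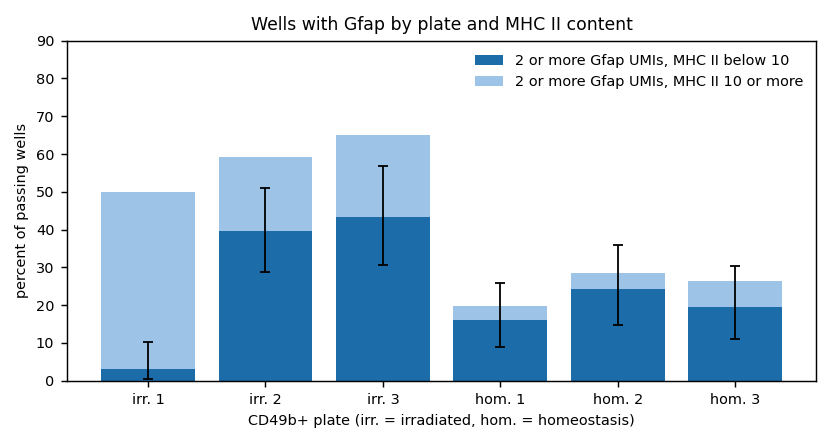
Percent of passing wells (vertical axis) with at least 2 Gfap UMIs on each CD49b+ plate, 3 irradiated on the left and 3 homeostasis on the right, split into dark bars for MHC II below 10 UMIs and light bars for 10 or more; lines are exact 95% binomial intervals of the dark bars and cover counting error only. Irradiated replicate 1 has 2.94% in the dark bar, while the whole bars are 50% to 65.0% after irradiation and 19.8% to 28.6% in homeostasis.

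Averaged over all passing wells, Gfap itself stood at 7.38, 8.74 and 12.9 UMIs per 10,000 on the irradiated plates and at 4.36, 4.65 and 4.47 on the homeostasis plates. Every irradiated plate lay above every homeostasis plate. In wells thinned to 1000 UMIs the variance of Gfap over its mean was 1.2, 1.77 and 1.28 on the irradiated plates and 1.31, 1.03 and 1.82 on the homeostasis plates. Genes of like mean on the same plates had medians of 1.06 to 1.26, and Gfap lay between the 41.6th and 96.7th percentile of them. The value exceeded the 95th percentile of these genes on homeostasis replicate 3 alone.

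No gene outside the rule passed the test between Gfap-positive and Gfap-0 wells. Of 1005 genes tested, 0 passed an adjusted p of 0.05 in edgeR's quasi-likelihood test with the plate as a block (0% called), and 48 had an unadjusted p below 0.05. DESeq2 called 0, with 4 at an unadjusted p below 0.05. The test used summed UMIs of irradiated replicate 2 and of the 3 homeostasis plates, since irradiated replicates 1 and 3 held only 4 and 3 Gfap-0 wells. The central 90% of log2 fold changes, Gfap-positive over Gfap-0, lay between -0.50 and 0.53, and the smallest adjusted p was 0.948.

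The 10 genes of smallest p, none of which passed, were mixed in kind. Entpd2, the enzyme on enteric glia that breaks down extracellular ATP, stood in the Gfap-positive wells at 3.59, 5.84 and 4.79 UMIs per 10,000 on irradiated plates and at 4.52, 7.25 and 8.96 on homeostasis plates. In the Gfap-0 wells it stood at 7.04, 2.97 and 4.25 on irradiated plates and at 4.50, 3.35 and 5.11 on homeostasis plates. Its log2 fold change was 0.74 (SE 0.221, edgeR adjusted p = 0.948, higher in the Gfap-positive wells of all 4 plates compared). Spry2, an inhibitor of receptor tyrosine kinase signalling, stood at -1.21 (SE 0.342, edgeR adjusted p = 0.948). The others were Rn18s-rs5, a ribosomal RNA-related sequence, at -0.43, the RNA-binding protein gene Qk at -1.04, the transcription factor genes Klf9 at -0.84 and Foxo1 at 0.83, and the NF-kB inhibitor gene Nfkbia at -0.58. Rpl23, a ribosomal protein, stood at 0.79, the tubulin gene Tubb4b at 0.85 and Ndufa11 of respiratory complex I at 0.64.

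No glial identity gene passed between the classes. Of 13 enteric glia markers 8 could be tested, 4 were positive and 4 negative and 0 were called, with a median log2 fold change of 0.03 beside -0.01 over all 1005 genes. S100b stood at 0.16 (SE 0.166) and Cmtm5 at 0.13 (SE 0.219). Intermediate filament partners of Gfap gave 3 tested genes and 0 called: Vim, the filament protein vimentin, was 0.22 (SE 0.128), Lmna of the nuclear lamina 0.09 and the cytoskeletal linker Dst -0.06. Reactive astrocyte genes gave 6 tested, 4 positive, 0 called and a median of 0.10. Their leading members were Serpina3n at 0.13 (SE 0.268), Serping1 at -0.10 (SE 0.187) and the small heat shock protein gene Hspb1 at 0.22 (SE 0.267).

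Immediate early genes, the transcription factors and regulators that cells induce within minutes of a stimulus and that tissue dissociation is known to induce, all pointed one way without a call. All 14 tested were negative, 3 had an unadjusted p below 0.05 and 0 passed the adjusted threshold, with a median of -0.19 and a range of -0.53 to -0.01. Over all genes tested, 520 of 1005 were negative and 48 had an unadjusted p below 0.05. Fos stood at -0.16 (SE 0.0983), Zfp36, an RNA-decay factor, at -0.26 (SE 0.123) and Junb at -0.31 (SE 0.133). The summed level of the 20 listed genes was 247, 253 and 274 UMIs per 10,000 in Gfap-positive wells of irradiated plates, against 246, 243 and 255 in their Gfap-0 wells. In homeostasis it was 273, 171 and 231 in Gfap-positive wells, against 327, 227 and 257 in Gfap-0 wells. Gfap-positive wells were thus lower on the homeostasis plates and not on the irradiated ones.

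Of the remaining lists tested in this comparison, 0 genes were called in any. MHC class I and peptide loading gave 7 genes with a median of 0.09, with B2m, the class I light chain, at 0.07 (SE 0.0888). Interferon response gave 9 with a median of -0.05, heat shock 8 with 0.07, and the gp130 and STAT3 list 4 with -0.13, all of them negative. Astrocyte-type support genes gave 9 with a median of 0.01, led by Apoe, the lipid carrier, at -0.01 (SE 0.061). Glial receptors and calcium signalling gave 5 with a median of 0.01, with the lysophosphatidic acid receptor gene Lpar1 at -0.05 (SE 0.151) and the calmodulin gene Calm2 at 0.01 (SE 0.154). Mitochondrially encoded genes gave 7 with a median of 0.16. The Notch target Hes1 stood at -0.25 (SE 0.212) and the cyclin gene Ccnd2 at 0.06 (SE 0.221). The only tested p53 target was Cdkn1a, the cell cycle inhibitor p21, at 0.96 (SE 0.367, adjusted p = 0.948).

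**Figure D2:**
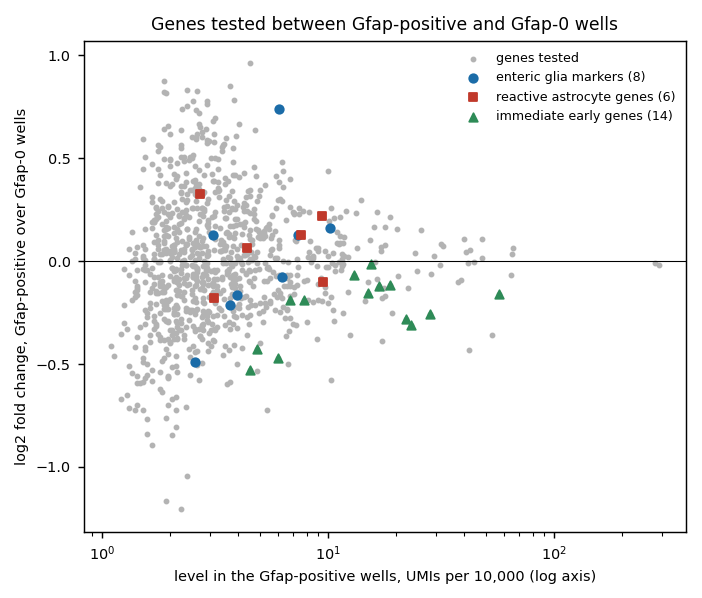
Level in Gfap-positive wells (horizontal log axis, UMIs per 10,000) against the log2 fold change of Gfap-positive over Gfap-0 wells (vertical axis) for the 1005 genes tested on 4 plates. The 8 enteric glia markers (blue circles) and 6 reactive astrocyte genes (red squares) lie on both sides of 0, the 14 immediate early genes (green triangles) lie at or below it, and no gene passed the threshold.

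The 10 transcripts with the highest UMI counts in the Gfap-positive wells were also abundant in the Gfap-0 wells. Apoe averaged 303 UMIs per 10,000 over plates in Gfap-positive wells and 279 in Gfap-0 wells, and the nuclear RNA Malat1 267 and 275. B2m averaged 65.6 and 62.8 in the same classes, Cst3, a cysteine protease inhibitor, 65.5 and 67.7, and Fxyd1, a regulator of the sodium pump, 48.1 and 48.3. The others were mt-Rnr2 at 57.1 and 63.0, Sec61a1 of the protein translocation channel at 53.3 and 69.7, Fos at 53.2 and 59.4, the gene model Gm1821 at 46.1 and 46.1, and the metallothionein gene Mt1 at 45.3 and 43.6. Levels of different genes are UMIs and not per transcript length. The averages weigh all plates alike, the 2 Gfap-positive and 4 Gfap-0 wells of irradiated replicate 1 included. Pooled over wells, Apoe stood at 289 in Gfap-0 wells. It stood at 284 in wells with 2 to 3 Gfap UMIs and at 268 in those with 4 or more. These pooled values mix irradiated and homeostasis wells, so they do not separate Gfap from treatment.

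Within the Gfap-positive MHC II-low wells, 3 of 989 genes were higher after irradiation and 0 lower (edgeR's quasi-likelihood test, 0.303% called higher; 76 genes at an unadjusted p below 0.05). They were Serpina3n and Serping1, both on the reactive astrocyte list, and Npy. This test set irradiated replicates 2 and 3 (32 and 26 wells) against homeostasis replicates 1 to 3 (13, 17 and 14 wells). Both irradiated plates of this test came from mice given tamoxifen at 9 weeks, against 1 of the 3 homeostasis plates, so age is partly aligned with irradiation. In an added fit with tamoxifen age as a term, which leaves the effect to irradiated replicates 2 and 3 against homeostasis replicate 2, 16 genes were called, these 3 among them. The set of plate numbers was also entered as a term, though the labels do not say what plate numbers mark. Replicate 1 of both treatments formed 1 set. The other irradiated plates formed a set of their own, and so did the other homeostasis plates. The effect then rests on irradiated replicate 1 against homeostasis replicate 1. With sums of at least 2 wells that is 2 wells against 13, so this fit cannot tell an effect of the set from one of few wells.

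Serpina3n encodes a secreted serine protease inhibitor that is a marker of reactive astrocytes in mouse. It stood at 5.38, 12.3 and 12.2 UMIs per 10,000 in Gfap-positive wells of irradiated plates and at 1.94, 2.69 and 0.560 in those of homeostasis plates. Every irradiated plate lay above every homeostasis plate, the 2 wells of irradiated replicate 1 included, which the test left out. The log2 fold change was 2.75 (SE 0.389, edgeR adjusted p = 0.000641). In Gfap-0 wells the levels were 15.5, 12.8 and 7.08 on irradiated plates and 2.33, 1.21 and 0.601 on homeostasis plates. Without homeostasis replicate 3, where Serpina3n was lowest, the log2 fold change was 2.36 with an edgeR adjusted p of 0.0774. It was 2.16 with tamoxifen age as a term (edgeR adjusted p = 0.00134), and 1.26 with the set of plate numbers as a term and at least 2 wells per sum (edgeR adjusted p = 0.695).

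Serpina3n lies at chr12:104406729-104414329 on the plus strand of GRCm38 (GENCODE vM21) in a family of near copies. Of its 2034 words of 31 bases, 440 (21.6%) also occur in other genes, so that its counts carry that uncertainty. In the 104 wells Serpina3n had 202 UMIs, Serpina3f had 5 and Serpina3i had 5.

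Serping1 encodes the C1 inhibitor, which restrains the first step of complement activation and contact proteases. Its levels in Gfap-positive wells were 8.97, 16.0 and 11.3 UMIs per 10,000 on irradiated plates and 3.87, 3.11 and 5.04 on homeostasis plates. The ranges did not overlap. Irradiated replicate 1, which the test left out, rests on 2 wells there, where 1 UMI was 1.79 UMIs per 10,000. The log2 fold change was 1.79 (SE 0.333, edgeR adjusted p = 0.0135). In Gfap-0 wells the levels were 16.9, 14.9 and 5.67 on irradiated plates and 4.81, 4.15 and 5.11 on homeostasis plates. Serping1, at chr2:84765387-84775444 on the minus strand of GRCm38, shared 0 of its 2349 words of 31 bases with another gene. Without homeostasis replicate 3 its log2 fold change was 1.98 with an edgeR adjusted p of 0.130, and with the set of plate numbers as a term it was 1.0 (edgeR adjusted p = 0.691).

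Npy encodes neuropeptide Y, a transmitter of enteric neurons. Its levels in Gfap-positive wells were 3.59, 6.33 and 4.95 UMIs per 10,000 on irradiated plates and 1.29, 1.04 and 1.96 on homeostasis plates, without overlap. The value of irradiated replicate 1, which the test left out, came from 1 of its 2 wells. There 1 UMI was 1.79 UMIs per 10,000. The log2 fold change of Npy was 2.00 (SE 0.401, edgeR adjusted p = 0.0215). In Gfap-0 wells the levels were 4.22, 4.16 and 2.83 on irradiated plates and 0.621, 1.61 and 1.5 on homeostasis plates. The edgeR adjusted p was 0.0725 without homeostasis replicate 1, 0.130 without homeostasis replicate 3 and 0.219 without irradiated replicate 2. With the set of plate numbers as a term the log2 fold change of Npy was 1.25 (edgeR adjusted p = 0.793). DESeq2 did not call Npy.

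Transcripts of other neuropeptides were present across whole CD49b+ plates, and these values stand beside Npy. Gal, the galanin gene, was found in 81 of 81 passing wells of irradiated replicate 2, at 71.2 UMIs per 10,000, and in 2 to 7 passing wells of every other CD49b+ plate. Cartpt was found in 68 of 68 and Grp in 55 of 68 passing wells of irradiated replicate 1. Each of these plates had wells above the UMI limit that were rich in the same transcripts: 2428 and 2167 Gal UMIs in wells of 13170 and 12699 UMIs on irradiated replicate 2, and 480 Cartpt and 143 Grp UMIs in a well of 24748 on irradiated replicate 1. The 4 CD49b+ wells above the limit on these plates held 1, 0, 0 and 0 Npy UMIs. Npy was found in 57.4%, 67.9% and 55.0% of passing wells on irradiated plates and in 18.5%, 28.6% and 36.1% on homeostasis plates. Whether Npy UMIs came from other cells of the plate was not tested.

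**Figure D3:**
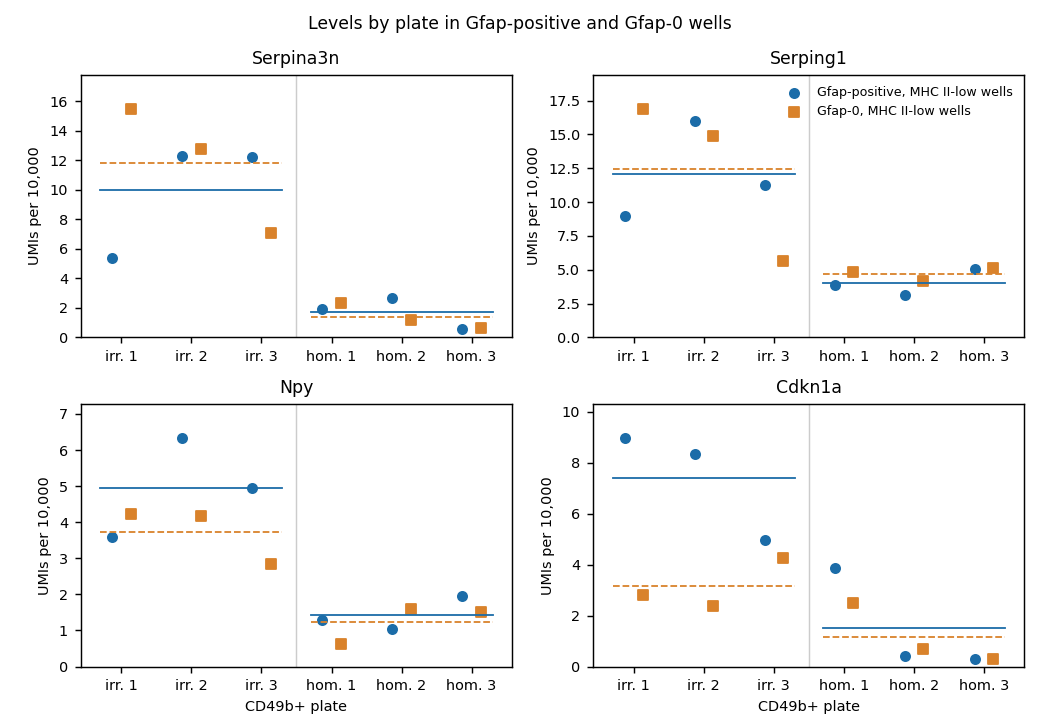
Level (vertical axes, UMIs per 10,000) of Serpina3n, Serping1, Npy and Cdkn1a on each CD49b+ plate, irradiated left and homeostasis right, in Gfap-positive MHC II-low wells (blue circles, solid line for the mean of 3 plates) and Gfap-0 wells (orange squares, dashed line). Serpina3n lies at 5.38 to 12.3 in Gfap-positive wells of irradiated plates and at 0.560 to 2.69 in those of homeostasis plates. Sums of irradiated replicate 1 rest on 2 Gfap-positive and 4 Gfap-0 wells, and the Gfap-0 sum of irradiated replicate 3 on 3 wells.

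The genes of next smallest p did not pass. Cdkn1a, a target of p53 induced by DNA damage, stood at 8.97, 8.32 and 4.95 UMIs per 10,000 in Gfap-positive wells of irradiated plates and at 3.87, 0.414 and 0.280 in homeostasis (log2 fold change 2.29, SE 0.557, edgeR adjusted p = 0.0656). Every irradiated plate was above every homeostasis plate, the 2 wells of irradiated replicate 1 included, which the test left out. Homeostasis replicate 1 stood apart from the other homeostasis plates, with Cdkn1a in 9 of 13 Gfap-positive wells, against 2 of 17 and 1 of 14. Without that plate the log2 fold change was 4.20 and the edgeR adjusted p 0.00209. The same values were 1.77 and 0.026 without homeostasis replicate 2, and 1.84 and 0.635 without homeostasis replicate 3. Leaving out irradiated replicate 2 or 3 keeps only the other irradiated plate in the test, and the log2 fold change was then 1.88 or 2.64. Cdkn1a was called in 8 of 23 alternatives.

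Ifi27l2a and Ifit3, both induced by interferon, had log2 fold changes of 1.60 (SE 0.364, edgeR adjusted p = 0.0644) and 1.66 (SE 0.404, edgeR adjusted p = 0.0656). Ifi27l2a stood at 3.59, 10.9 and 5.41 UMIs per 10,000 in Gfap-positive wells of irradiated plates and at 3.23, 2.69 and 2.24 in homeostasis. Ifit3 stood at 1.79, 8.20 and 5.10 on irradiated and at 1.61, 1.24 and 3.64 on homeostasis plates, where the ranges overlapped. Hspa5, the chaperone BiP of the endoplasmic reticulum, had 1.11 (SE 0.314, edgeR adjusted p = 0.199), and the gene models Gm19244, Gm12155 and Gm13009 had 1.51, 2.12 and 1.32.

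Reactive astrocyte genes, a list drawn from work on mouse brain, had 2 of 9 tested members higher, 0 lower and a median log2 fold change of 0.41, beside 0.303% of all 989 genes called higher and a median of -0.03 over them. They were Serpina3n and Serping1, and 8 of the 9 were positive. Hspb1 on the same list stood at 0.10 (SE 0.396). The summed level of its 28 genes was 37.7, 54.3 and 55.9 UMIs per 10,000 in Gfap-positive wells of irradiated plates, against 37.4, 26.7 and 28.6 in homeostasis. Serpina3n and Serping1 are part of this sum, so it is not separate from those 2 calls. A sum of the other genes alone was not computed, so these sums do not show a rise in the rest of the list. The list was detected through 18 members in the Gfap-positive wells.

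Interferon response genes had 0 of 9 tested members called, 8 of them positive, and a median of 0.69, while 461 of all 989 genes were positive. Ifitm3, which restricts virus entry, stood at 0.77 (SE 0.271). Their sum was 64.6, 109 and 75.3 UMIs per 10,000 in Gfap-positive wells of irradiated plates and 61.0, 39.6 and 59.7 in those of homeostasis plates. MHC class I genes had 0 of 8 called and a median of 0.25, with B2m at 0.09 (SE 0.212) and H2-D1 at -0.09 (SE 0.254). Immediate early genes had 0 of 14 called, 11 positive and a median of 0.25, and heat shock genes 0 of 9 called and a median of 0.31.

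Astrocyte-type support genes had 0 of 9 called and a median of 0.39, with Mt1 at 0.69 (SE 0.261), Dbi, which encodes a ligand of benzodiazepine sites, at 0.39 (SE 0.246) and Apoe at -0.19 (SE 0.150). The gp130 and STAT3 list had 0 of 4 called and a median of 0.28, with Cebpd at 0.63 (SE 0.277), Socs3, the feedback inhibitor of that pathway, at -0.03 (SE 0.313) and Stat3 at 0.27 (SE 0.445). Enteric glia markers had 0 of 8 called and a median of -0.03, with S100b at -0.55 (SE 0.329). Extracellular matrix genes had 0 of 5 called and a median of -0.48, with the collagen gene Col12a1 at -0.89 (SE 0.367). Of the trophic factors only Tgfb2 could be tested, at -0.90 (SE 0.331, edgeR adjusted p = 0.452).

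**Figure D4:**
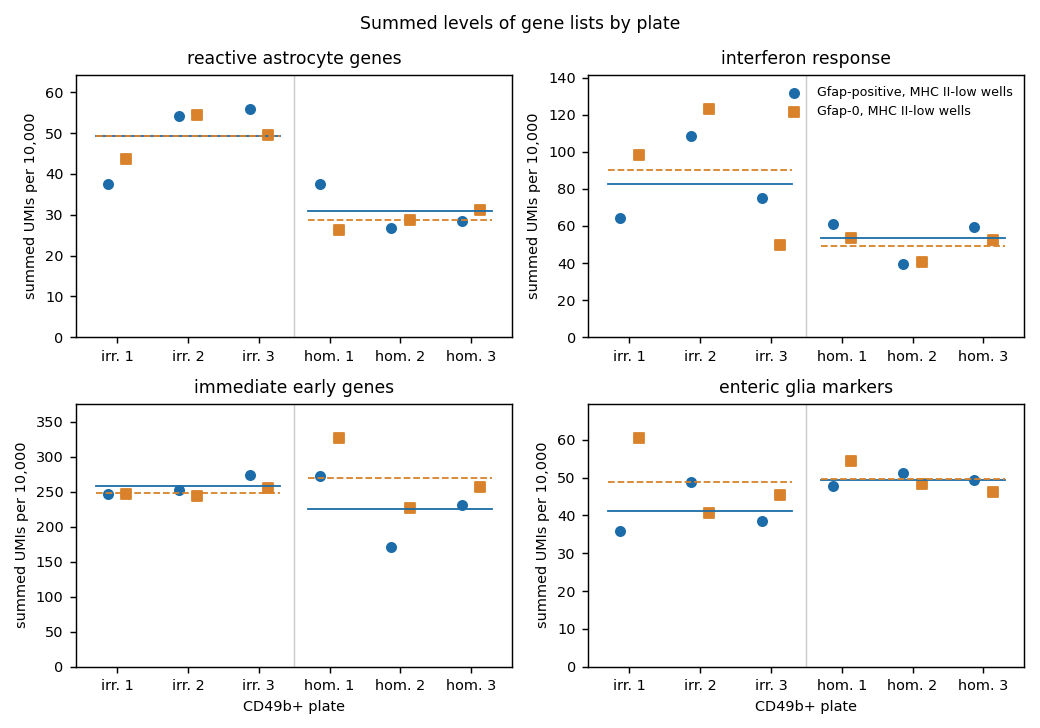
Summed level (vertical axes, UMIs per 10,000) of 4 gene lists on each CD49b+ plate, irradiated left and homeostasis right, in Gfap-positive MHC II-low wells (blue circles, solid line for the mean of 3 plates) and Gfap-0 wells (orange squares, dashed line). The reactive astrocyte sum in Gfap-positive wells is 37.7 to 55.9 on irradiated plates and 26.7 to 37.4 on homeostasis plates. It includes Serpina3n and Serping1. Irradiated replicate 1 rests on 2 Gfap-positive and 4 Gfap-0 wells, and the Gfap-0 sum of irradiated replicate 3 on 3 wells.

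Whether irradiation acted differently on Gfap-positive and Gfap-0 wells was tested as an interaction. Of 2102 genes 0 passed (0% called; 86 at an unadjusted p below 0.05 in edgeR, and DESeq2 called 0 with 4 at that level). Irradiated replicate 2 was the only irradiated plate with 5 wells in both classes, so the irradiated side of this test rests on 1 plate, which is assumed to vary like the others. The interaction log2 value is the irradiation effect in Gfap-positive wells minus that in Gfap-0 wells. For Serpina3n it was -0.34 (SE 0.544), for Serping1 0.46 (SE 0.452) and for Npy 0.58 (SE 0.692). Cdkn1a stood at 1.62 (SE 0.749, edgeR adjusted p = 0.998).

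The smallest p belonged to Dnajb1, a co-chaperone of the heat shock response, at 1.58 (SE 0.410, edgeR adjusted p = 0.310). In the added fit with no MHC II limit on either class, which takes in all 6 plates, Dnajb1 passed at 1.20 (edgeR adjusted p = 0.0314), but not without irradiated replicate 1 or 2 (edgeR adjusted p = 0.124 and 0.294). It passed in 7 of 20 alternatives. It stood at 7.17, 23.1 and 22.1 UMIs per 10,000 in Gfap-positive wells of irradiated plates and at 11.3, 5.39 and 18.5 in homeostasis. In Gfap-0 wells it stood at 9.85, 12.5 and 14.2 on irradiated plates and 16.8, 10.6 and 22.7 on homeostasis plates. Btg2, an antiproliferative immediate early gene, had 1.46 (SE 0.386, edgeR adjusted p = 0.310) and Mat2a, which makes S-adenosylmethionine, 3.32 (SE 0.923, edgeR adjusted p = 0.398). The rest of the 10 were Mif-ps3, Atp5d, Ndufb10 and 2610203C20Rik with positive values, and Ifi47, Cyba and RP23-99K2.3 with negative ones. Mif-ps3, Ndufb10 and 2610203C20Rik had 0 UMIs in the Gfap-0 wells of irradiated replicate 2, so their fitted values of 7.20, 6.58 and 6.83 depend on the prior count.

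The amount of Gfap in a well was also followed in steps, within each treatment, since Gfap was higher on irradiated plates. Irradiated replicate 1 was left out. On irradiated replicates 2 and 3, wells with 0, 1, 2 to 3 and 4 or more Gfap UMIs numbered 17, 20, 35 and 23, and on the homeostasis plates 92, 56, 31 and 13. Serpina3n stood at 11.8, 13, 11.1 and 14.0 UMIs per 10,000 in these steps on irradiated plates and at 1.36, 1.22, 2.10 and 1.17 on homeostasis plates. The counting intervals of all steps overlapped within a treatment, and between treatments none did.

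S100b stood at 7.13, 8.74, 8.46 and 8.65 in the same steps on irradiated plates and at 11.8, 11.3, 12.4 and 12.3 on homeostasis plates. Vim, the partner filament, stood at 16.7, 20.7, 17.7 and 19.5 on irradiated and at 15.5, 15.7, 18.7 and 18.2 on homeostasis plates. Cdkn1a stood at 2.70, 6.61, 6.18 and 7.78 on irradiated plates, where the interval of the first step was 1.35 to 4.84 and that of the last 5.68 to 10.4, and at 1.12, 1.58, 1.48 and 0.879 on homeostasis plates. These exact 95% Poisson intervals cover counting error only, and wells of a plate are not replicates, so no test of the steps was made.

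**Figure D5:**
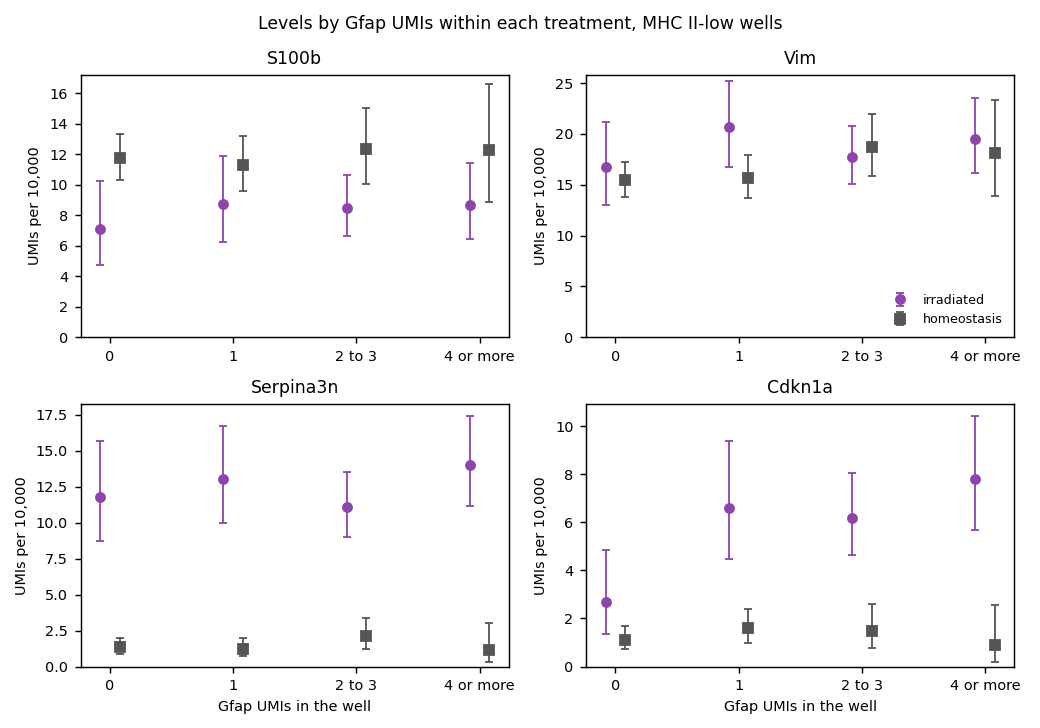
Level (vertical axes, UMIs per 10,000) of S100b, Vim, Serpina3n and Cdkn1a in MHC II-low wells grouped by Gfap UMIs (horizontal axis), for irradiated replicates 2 and 3 (purple circles) and the 3 homeostasis plates (grey squares), with exact 95% Poisson intervals that cover counting error only. Serpina3n is 11.1 to 14.0 in all steps of the irradiated plates and 1.17 to 2.10 in all steps of the homeostasis plates.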

How the data were processed

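The deposited table held raw UMI counts per gene and well for 12 plates, not normalised; per the labels, cells were lysed and their RNA reverse transcribed in 96-well plates before Nextera XT library preparation. Per the submitters' processing notes, the tools were featureCounts 1.5.3 and STAR 2.5.3a, with GRCh38 and GRCm38 named as builds; roles of the builds, strand use and how molecules were collapsed are not given in the sources used here. Wells dropped or doublets removed before deposition are not given either, and no doublet caller was run; wells of 10,000 UMIs or more were left out. Counts were summed per plate and class without Gfap, H2-Aa, H2-Ab1, H2-Eb1 and Cd74, which the rule used. Sums of at least 5 wells were tested with edgeR 4.0.16 (R 4.3.3; TMM, filterByExpr, quasi-likelihood F test, Benjamini-Hochberg, 0.05). The plate was a block between classes, because both sums of a plate share mice and library. The design foresaw 2 sums for all 6 plates; 8 had enough wells for the class comparison and 5 for irradiation. DESeq2 1.42.0 was an alternative. The p-values of the irradiation and share tests rest on the spread between plates, each a pool of 2 mice. Those of the class comparison and the interaction rest on how class differences within a plate vary over plates. The script was run on counts simulated from its own fitted values, which cannot show how the fits behave on real sums of few wells. Shares were compared with exact permutation tests in Python 3.11.15 and scipy 1.17.1.

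Members and gene lists were chosen with earlier results of these data known. Genes named are those past the threshold, the 10 of smallest p where few passed, the 3 highest of each list, the 10 most abundant, and the rule's genes; Sox10, Epcam, Krt8, Serpina3f, Serpina3i, Gal, Cartpt and Grp were added after their values were seen. Promoters came from RefSeq (GRCm38.p6) and gene positions from GENCODE vM21; 3 of the genes Gfap, Serpina3n, Serping1 and Npy had a promoter entry. Motifs were chosen after the values were seen.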

Additional observations from a re-analysis of the deposited data

Results flagged for a closer look

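Wells with at least 2 Gfap UMIs and 10 or more MHC II UMIs, which the comparisons of MHC II-low wells do not use, made up 47.1%, 19.8% and 21.7% of passing wells on irradiated replicates 1, 2 and 3 and 3.70%, 4.29% and 6.94% on homeostasis replicates 1, 2 and 3. They drew attention because the CD49b- plates had 0 such wells. Only 1 of 438 passing CD49b- wells had any Gfap UMI, so that count tells nothing about MHC II there. Each irradiated plate was above each homeostasis plate.

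In some gene sums the Gfap-positive wells differed from the Gfap-0 wells in one direction on all 3 irradiated plates and in the other on all 3 homeostasis plates. Irradiated replicate 1 rests on 2 Gfap-positive and 4 Gfap-0 wells there, and irradiated replicate 3 on 3 Gfap-0 wells. Immediate early genes differed by a mean of 10.0 UMIs per 10,000 on irradiated and -45.1 on homeostasis plates. Neuron markers differed by -1.32 and 1.31, smooth muscle markers by 1.05 and -1.09, and p53 targets by 4.03 and -0.54, each given as irradiated and then homeostasis. For these summed lists the difference between treatments was not tested. Btg2 differed by 8.96 on irradiated and -7.42 on homeostasis plates and Mat2a by 3.06 and -1.28; their interactions had adjusted p of 0.310 and 0.398 in edgeR. The Btg2 interaction passed in 4 of 20 alternatives: with no filter (adjusted p = 0.0284), in thinned wells (0.0496), without homeostasis replicate 1 (0.0307), and with no MHC II limit and without that plate (0.00165).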

How the results depend on the processing

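Alternatives marked here as added were chosen after seeing the data. Between Gfap-positive and Gfap-0 wells the count of 0 called genes became 3 with no filter and 1 (Sec61a1, lower in Gfap-positive wells) without homeostasis replicate 1, for a range of 0 to 1 over left-out plates; it was 1 again in the added fits with no MHC II limit leaving out that plate. It stayed 0 with no replicate block and with Gfap-0 wells of any MHC II count. Same replicate numbers in irradiated and homeostasis plates mark different mice, so treatments were not paired. For irradiation in Gfap-positive wells, the 3 calls became 17 with no filter, 0 in wells thinned to 1000 UMIs (237 genes tested), 1 with at least 3 Gfap UMIs, and 0 to 14 over left-out plates: 4 without homeostasis replicate 1, 14 without replicate 2 and 0 without replicate 3, and 7 and 8 without irradiated replicates 2 and 3. No fit was possible with the set of plate numbers as a term, because both irradiated plates fell in 1 set. The added fits with that term gave 0 (at least 2 wells per sum) and 2 (no MHC II limit; Serpina3n at 3.18 and Tmem176a). Serping1 and Npy were called in neither, with adjusted p of 0.157 and 0.198 under no MHC II limit. Added fits with tamoxifen age as a term gave 16, and 13 with no MHC II limit, Serpina3n, Serping1 and Npy among both; in the second Gm13009 was -0.16. The fits with no MHC II limit gave 1 to 6 over left-out plates. Under the plate-number set term and at least 2 wells, Ifi27l2a, Gm19244, Ifit3 and Gm13009 had log2 changes of -0.0521, -0.0516, -0.0516 and -5.87. Under the same set term and no MHC II limit, those of Gm19244, Gm12155 and Gm13009 were -0.88, -2.07 and -1.57. Serpina3n was called in 21 of 24 alternatives, Serping1 in 17 and Npy in 11. For the interaction, 0 became 3 with no filter, 2 in thinned wells, 0 to 2 over left-out plates and, in added fits with no MHC II limit, 1, and 0 to 8 (8, 3 and 3 without homeostasis replicates 1, 2 and 3, and 1 without irradiated replicate 3). Dnajb1 was called in 7 of the 20 interaction alternatives and Btg2 in 4. There Ndufb10 was -0.0733 without irradiated replicate 2, and RP23-99K2.3 was 0.63 without it or without homeostasis replicate 2. The interaction without irradiated replicate 2 could otherwise not be fitted. The difference in share was -5.15 points at 1 Gfap UMI, -2.04 in thinned wells, and 1.30 to 21.5 over left-out plates. At 1 Gfap UMI and in thinned wells, only irradiated replicate 1 lay below the homeostasis plates. The cause of these shifts was not tested. Depth limits all of this: 1 UMI in a plate sum of Gfap-positive wells was 0.124 to 1.79 UMIs per 10,000.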
